A study of Mus musculus with 24 samples.

Results

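Acetylcholine reaches the hippocampus (HIP) and entorhinal cortex (EC) mainly through axons of the basal forebrain, so the cells of both regions express the receptors and the degrading enzyme while few of them make the transmitter. The genes described here are 4 muscarinic receptors (Chrm1, Chrm2, Chrm3 and Chrm4), 4 nicotinic receptor subunits (Chrna4, Chrna5, Chrna7 and Chrnb2) and acetylcholinesterase (Ache). They were taken by symbol as rows of the count matrix, 9 of 55385 genes, and all 9 passed the filter on low counts. RNA-Seq libraries came from the HIP and EC of 6 male Ts65Dn mice and 6 male wild-type (wt) littermates aged 5 to 6 months, on an F1 B6C3B background, which gave 24 libraries with 1 HIP and 1 EC library per mouse. Ts65Dn mice carry a freely segregating minichromosome with an extra copy of Mir155 to Zbtb21 of mouse chromosome 16, the part with homologs on human chromosome 21, and of Scaf8 to Pde10a of chromosome 17. The latter segment has no homology to human chromosome 21, which limits Ts65Dn as a model of Down syndrome. The wt littermates lack the minichromosome and carry no other allele named in the labels. None of the 9 genes lies on either segment, so each had the same number of copies in both genotypes.

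Muscarinic receptors couple to G proteins. Chrm1 and Chrm3 encode receptors coupled to Gq, which activates phospholipase C, and Chrm2 and Chrm4 encode receptors coupled to Gi, which inhibits adenylate cyclase and includes the presynaptic autoreceptors of cholinergic terminals. Nicotinic receptors are ion channels of 5 subunits: α4 (Chrna4) and β2 (Chrnb2) form the main heteromeric receptor of the forebrain, α5 (Chrna5) is an accessory subunit of it, and α7 (Chrna7) forms homomeric channels with high calcium permeability. Ache ends the signal by hydrolysing acetylcholine.

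The labels were checked before the results. Over 58 genes of the triplicated chromosome 16 segment with a mean of at least 1 CPM (counts scaled to the library size) in the wt HIP, 5 of the 6 Ts65Dn HIP libraries had a median ratio to the wt mean of 1.47 to 1.51. It was 1.01 in the library labelled Ts65Dn replicate 3, while the wt libraries lay between 0.976 and 1.01. Over 56 genes in the EC it lay between 1.45 and 1.55 in 5 Ts65Dn libraries, was 1.005 in Ts65Dn replicate 3 and lay between 0.979 and 1.01 in wt. Both libraries of the mouse labelled Ts65Dn replicate 3 thus had these genes at the wt level, against their label. The label was kept, and the genotype fits were repeated without this mouse. Member and list counts are also given from fits without this mouse. The region labels went with the region markers: 8 hippocampal marker genes summed to at least 752 CPM in every HIP library and at most 100 CPM in every EC library, and 7 cortical marker genes had median sums of 219 CPM in the wt HIP and 787 CPM in the wt EC, again with no overlap.

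CPM are counts scaled to the TMM effective library size, and CPM divided by the length of a gene's exons in kilobases (CPM per kb) allow genes to be compared with each other. In the wt HIP, Chrm1 had the highest per-length level of the 9 genes, with 39.9 ± 1.69 CPM per kb (SD, n = 6), followed by Chrm3 with 15.3 ± 0.492, and neither range overlapped that of the next gene. Ache had 9.84 ± 0.931 and Chrnb2 8.42 ± 0.306 CPM per kb, and their ranges overlapped. Chrm4 (4.99 ± 1.33), Chrna4 (4.51 ± 1.37) and Chrna7 (4.15 ± 0.370) formed a group with overlapping ranges, although Chrna7 had 6.65 CPM per kb by the length of its longest transcript, above Chrm4 (4.99) and Chrna4 (4.96) by the same measure. Chrm2 (2.31 ± 0.368) and Chrna5 (2.15 ± 0.328) had the lowest levels, also with overlapping ranges.

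The order was different in the wt EC. Chrm1 (34.6 ± 1.85 CPM per kb) and Chrm3 (16.1 ± 1.75) again had the highest per-length levels, but Chrm4 (11.8 ± 1.52) and Chrna4 (9.31 ± 1.15) came next, before Chrnb2 and Ache. Chrm3 lay above Chrm4 in 6 of 6 libraries although the ranges over libraries overlapped, and Chrm4 lay above Chrna4 in 6 of 6. Chrna4, Chrnb2 (8.62 ± 0.665) and Ache (8.37 ± 1.25) did not differ beyond their spread. By the length of the longest transcript Chrna4 (10.2) lay below Chrnb2 (11.3) and Ache (10.5). Chrm2 had 5.25 ± 1.08 CPM per kb, and Chrna7 (2.17 ± 0.216) and Chrna5 (1.17 ± 0.247) were lowest. The GENCODE vM21 model of Chrm4, from which its length was taken, has 1440 exon bases and holds no untranslated regions. The authors counted with another annotation release, and whether their Chrm4 model held further exons was not checked, so its per-length level and the shares that include it depend on this length. In Ts65Dn the order was Chrm1, Chrm3, Ache, Chrnb2, Chrna4, Chrm4, Chrna7, Chrna5, Chrm2 in the HIP and Chrm1, Chrm3, Chrm4, Chrna4, Ache, Chrnb2, Chrm2, Chrna7, Chrna5 in the EC. Where these orders differ from wt, the genes concerned had overlapping ranges.

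**Figure D1:**
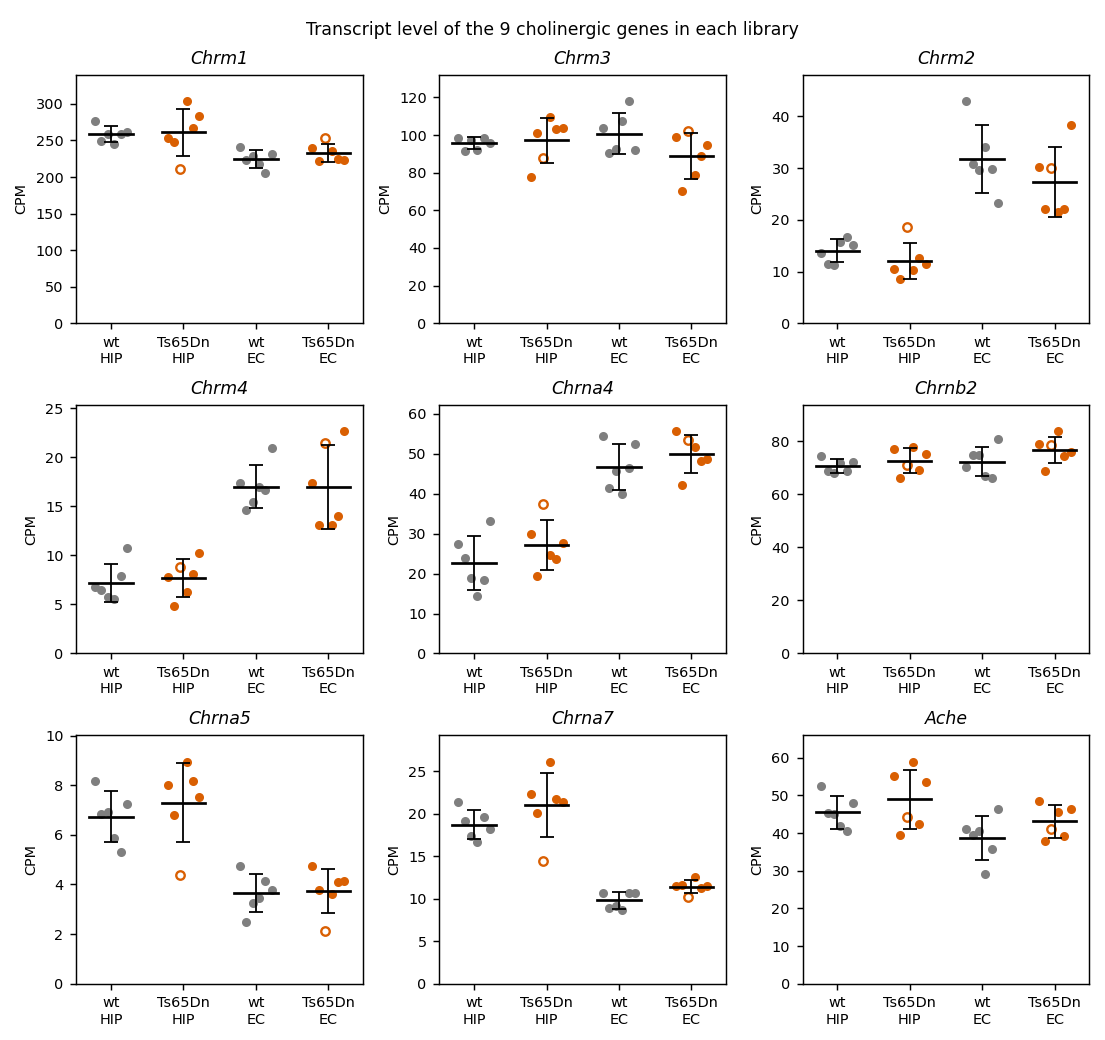
Each panel shows 1 gene, with its level in CPM on the y axis (from 0) and the 4 groups on the x axis. Points are libraries, open circles are the 2 libraries of the mouse labelled Ts65Dn replicate 3, and black lines are the mean ± SD of 6 libraries. Chrm2, Chrm4 and Chrna4 lie higher in the EC and Chrna5 and Chrna7 higher in the HIP, whereas wt and Ts65Dn overlap in every panel.

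The spread between mice also differed from gene to gene. In the wt HIP the coefficient of variation was 3.22% for Chrm3, 3.64% for Chrnb2 and 4.24% for Chrm1, below the median of 8.77% over the 14941 genes with a mean of at least 1 CPM. It was 30.2% for Chrna4, 26.5% for Chrm4 and 15.9% for Chrm2. Total counts on genes ranged from 23128589 to 40476492 per library. Counting error is thus small for Chrm1, with at least 5453 counts in every library, and largest for Chrna5, which had 59 to 174 counts in the EC.

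The comparison of HIP with EC in the same mice asked where each receptor is expressed. In wt, 7 of 9 genes differed between the regions in edgeR's quasi-likelihood test (Benjamini-Hochberg adjusted p under 0.05), where 58.6% of all 18109 genes tested were called. Of these, 3 were higher in the EC (28.3% of all genes) and 4 in the HIP (30.3%). In Ts65Dn, 7 of 9 were called, the same 7 in the same directions, beside 56.5% of all genes, with 27.0% higher in the EC and 29.5% in the HIP. The median absolute log2 fold change of the 9 genes was 0.89 in wt and 0.86 in Ts65Dn, and over all genes tested it was 0.29 and 0.27. The groups did not overlap for 6 of the 9 genes in wt (33.4% of all genes) and for 4 in Ts65Dn (26.4% of all genes), or 6 in Ts65Dn without replicate 3 (30.8% of all genes). In these bulk samples fewer cells of a type and less RNA per cell cannot be told apart.

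Both Gi-coupled receptors were higher in the EC. Chrm2 ranged from 11.3 to 16.6 CPM (median 14.4) in the wt HIP and from 23.3 to 43.0 (median 30.4) in the wt EC, and from 8.58 to 18.6 (median 11.0) and from 21.5 to 38.4 (median 26.0) in Ts65Dn. Every EC library lay above every HIP library in both genotypes. The log2 fold change of HIP over EC was -1.17 ± 0.139 (SE) in wt and -1.20 ± 0.141 in Ts65Dn (edgeR's quasi-likelihood test, adjusted p = 2.86e-06 and 3.17e-06). Chrm4 ranged from 5.52 to 10.7 CPM (median 6.64) in the wt HIP and from 14.6 to 21.0 (median 16.8) in the wt EC, and from 4.87 to 10.3 (median 7.95) and from 13.1 to 22.7 (median 15.7) in Ts65Dn. Again no libraries overlapped between the regions. Its log2 fold change was -1.26 ± 0.0880 in wt and -1.14 ± 0.0879 in Ts65Dn (edgeR's quasi-likelihood test, adjusted p = 8.45e-09 and 2.73e-08).

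Chrm1 and Chrm3, the Gq-coupled members, differed less by region. Chrm1 had 259 ± 11.0 CPM (SD, n = 6) in the wt HIP and 225 ± 12.0 in the wt EC, was higher in the HIP of 6 of 6 wt mice and had a log2 fold change of 0.20 ± 0.0632 (edgeR's quasi-likelihood test, adjusted p = 0.0116). In Ts65Dn it was 0.16 ± 0.0633 (adjusted p = 0.0456 in the same edgeR test), with 5 of 6 mice higher in the HIP. The exception was Ts65Dn replicate 3, which had the lowest Chrm1 of all HIP libraries (211 CPM), and without this mouse the Ts65Dn value was 0.24 (adjusted p = 0.000388 in the same edgeR test). That Ts65Dn call was lost in 13 of the 19 alternative analyses. Chrm3 had 95.7 ± 3.08 CPM in the wt HIP and 101 ± 11.0 in the wt EC, and the difference was within the spread between mice in wt (log2 fold change -0.07, 95% interval -0.27 to 0.13) and in Ts65Dn (0.13, -0.07 to 0.33). The Ts65Dn value rested on single mice: it was 0.05 without Ts65Dn replicate 2, 0.06 without replicate 4 and 0.20 without replicate 3, and 0.23 without replicate 1, where it was called (edgeR's quasi-likelihood test, adjusted p = 0.0400).

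Among the nicotinic subunits, Chrna4 was higher in the EC and Chrna5 and Chrna7 in the HIP. Chrna4 ranged from 14.4 to 33.1 CPM (median 21.5) in the wt HIP and from 39.9 to 54.6 (median 46.0) in the wt EC, and from 19.5 to 37.5 (median 26.2) and from 42.1 to 55.6 (median 50.2) in Ts65Dn. The regions did not overlap in either genotype. Its log2 fold change was -1.08 ± 0.0989 in wt and -0.90 ± 0.0977 in Ts65Dn (edgeR's quasi-likelihood test, adjusted p = 1.70e-07 and 1.30e-06). Chrnb2, the partner of Chrna4 in the heteromeric receptor, had 70.6 ± 2.57 CPM in the wt HIP and 72.2 ± 5.57 in the wt EC. The regions overlapped, with a log2 fold change of -0.03 (95% interval -0.12 to 0.06) in wt and -0.08 (-0.17 to 0.01) in Ts65Dn. Within mice, the EC was higher in 3 of 6 wt and in 6 of 6 Ts65Dn mice, and neither genotype passed the test (edgeR's quasi-likelihood test, adjusted p = 0.553 and 0.143). Chrnb2 shares 1365 exon bases with Adar on the opposite strand, and whether the counting used strand is not given in the sources used here.

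Chrna7 ranged from 16.7 to 21.3 CPM (median 18.7) in the wt HIP and from 8.69 to 10.7 (median 9.89) in the wt EC. In Ts65Dn the ranges were 14.5 to 26.1 (median 21.5) and 10.2 to 12.6 (median 11.5). All HIP libraries lay above all EC libraries of their genotype. The log2 fold change was 0.94 ± 0.0679 in wt and 0.86 ± 0.0670 in Ts65Dn (edgeR's quasi-likelihood test, adjusted p = 1.31e-08 and 3.14e-08). Chrna5 ranged from 5.30 to 8.18 CPM (median 6.89) in the wt HIP and from 2.50 to 4.76 (median 3.61) in the wt EC, and from 4.37 to 8.95 (median 7.75) and from 2.14 to 4.76 (median 3.93) in Ts65Dn. The regions were apart in wt and overlapped in Ts65Dn through replicate 3, which had the lowest Chrna5 in both regions, yet 6 of 6 mice of each genotype had more Chrna5 in the HIP. Its log2 fold change was 0.89 ± 0.116 in wt and 0.96 ± 0.116 in Ts65Dn (edgeR's quasi-likelihood test, adjusted p = 8.06e-06 and 3.98e-06).

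Ache had 45.5 ± 4.31 CPM in the wt HIP and 38.7 ± 5.78 in the wt EC, and 49.0 ± 7.88 and 43.1 ± 4.35 in Ts65Dn. The ranges overlapped, but within each mouse the HIP was higher in 6 of 6 wt and 6 of 6 Ts65Dn mice. The log2 fold change was 0.24 ± 0.0565 in wt and 0.18 ± 0.0562 in Ts65Dn (edgeR's quasi-likelihood test, adjusted p = 0.00173 and 0.0143). Without the term for the mouse neither call held, with adjusted p = 0.0586 and 0.142 in edgeR. The Ts65Dn call was also lost without Ts65Dn replicate 4 (adjusted p = 0.0689 in edgeR).

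**Figure D2:**
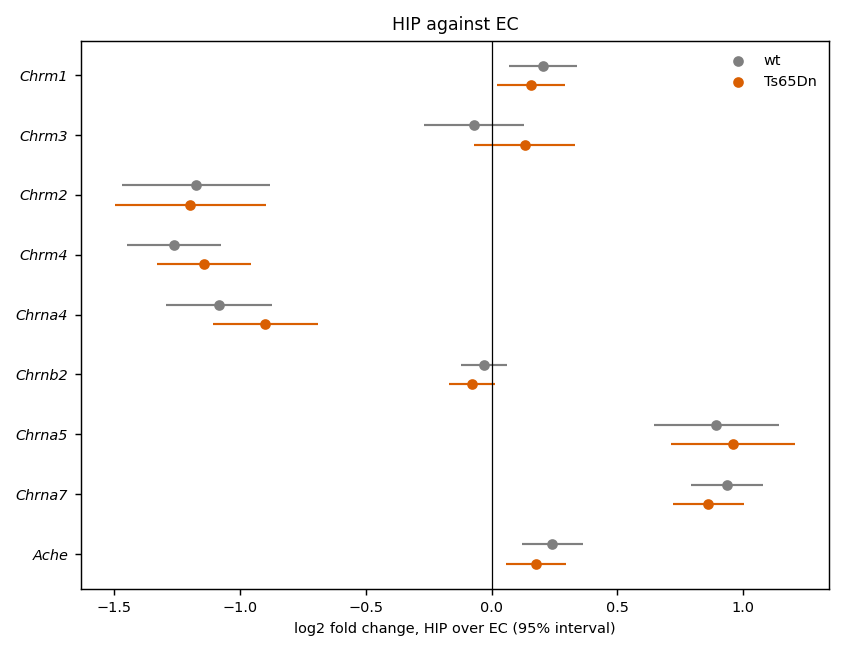
Points are log2 fold changes of HIP over EC from edgeR and lines their 95% intervals, in wt (grey) and Ts65Dn (orange), with the genes on the y axis. Chrm2, Chrm4 and Chrna4 lie near -1, Chrna5 and Chrna7 near 1 in both genotypes, and the intervals of Chrm3 and Chrnb2 cross 0.

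At the extremes, the Chrna4 and Chrm4 values of the HIP libraries largely went with the cortical markers, with exceptions among the libraries between. The 7 cortical marker genes, led by Lamp5, summed to 304 CPM in wt replicate 6 and 170 CPM in wt replicate 4, and these were also the wt HIP libraries with the highest and lowest Chrna4 (33.1 and 14.4 CPM) and Chrm4 (10.7 and 5.52 CPM). Between them, the cortical sum was higher in wt replicate 5 (265 CPM) than in wt replicate 1 (234 CPM). Chrm4 was likewise higher in replicate 5 (7.86 against 6.80 CPM), but Chrna4 was lower (18.3 against 27.3 CPM). In Ts65Dn the cortical sum was highest in replicates 6 and 3 (280 and 277 CPM) and lowest in replicate 2 (178 CPM), and Chrm4 was likewise highest in replicate 6 (10.3 CPM) and lowest in replicate 2 (4.87 CPM). Chrna4 was highest in Ts65Dn replicate 3 (37.5 CPM) and lowest in replicate 2 (19.5 CPM). In replicate 6, with the highest cortical sum, it was 27.8 CPM, below the 30.0 CPM of replicate 1, which had a cortical sum of 222 CPM. All 7 cortical markers were detected in every HIP library, and the EC libraries had a mean sum of 782 CPM in wt and 751 CPM in Ts65Dn. The part of cortical tissue in these values was not tested. Ts65Dn replicate 3 also had 13.2 CPM of Spink8 and 93.8 CPM of Fibcd1, both markers of CA1 pyramidal neurons, where the other 11 HIP libraries had at least 24.9 and 121 CPM. These were 2 of the 8 hippocampal markers, picked after their values were seen. The other 6 lay within the range of the other HIP libraries, with Zbtb20 at 332 CPM and Prox1 at 124 CPM, and the sum of all 8 was 775 CPM, above that of 3 other HIP libraries.

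The make-up of each receptor family was described as the share of each gene in the summed per-length level of its family. No test was made on these shares. The 5 muscarinic genes summed to 63.4 ± 2.74 CPM per kb in the wt HIP and 68.0 ± 2.97 in the wt EC. Gi-coupled Chrm2 and Chrm4 made up 11.5% ± 2.01 of this sum in the wt HIP and 25.1% ± 1.27 in the wt EC (SD, n = 6), and the highest HIP share, 15.0%, lay below the lowest EC share, 23.7%. In Ts65Dn their share was 11.6% ± 3.02 for HIP libraries and 24.2% ± 3.86 for EC libraries. Chrm1 made up 62.9% ± 1.33 in the wt HIP and 51.0% ± 2.49 in the wt EC, and Chrm3 24.2% ± 0.649 and 23.7% ± 2.49.

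The sum over 16 nicotinic subunit genes was 23.2 ± 3.23 CPM per kb in the wt HIP and 23.6 ± 1.74 in the wt EC. Chrnb2 held 36.8% ± 4.09 and 36.7% ± 2.76 of it. Chrna4 made up 19.8% ± 6.01 in the HIP and 39.4% ± 2.03 in the EC, whereas Chrna7 went from 18.3% ± 3.09 to 9.23% ± 0.542 and Chrna5 from 9.42% ± 1.72 to 4.94% ± 0.863. The per-length ratio of Chrna4 to Chrnb2 was 0.534 ± 0.152 in the wt HIP and 1.08 ± 0.133 in the wt EC, and 0.624 ± 0.138 and 1.09 ± 0.0602 in Ts65Dn. By the length of the longest transcript Chrna7 made up 22.6% ± 3.55 in the wt HIP and 11.9% ± 0.689 in the wt EC, and Chrna4 16.8% ± 5.10 and 34.9% ± 1.88. Ratios of transcripts are not ratios of subunits in receptors.

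**Figure D3:**
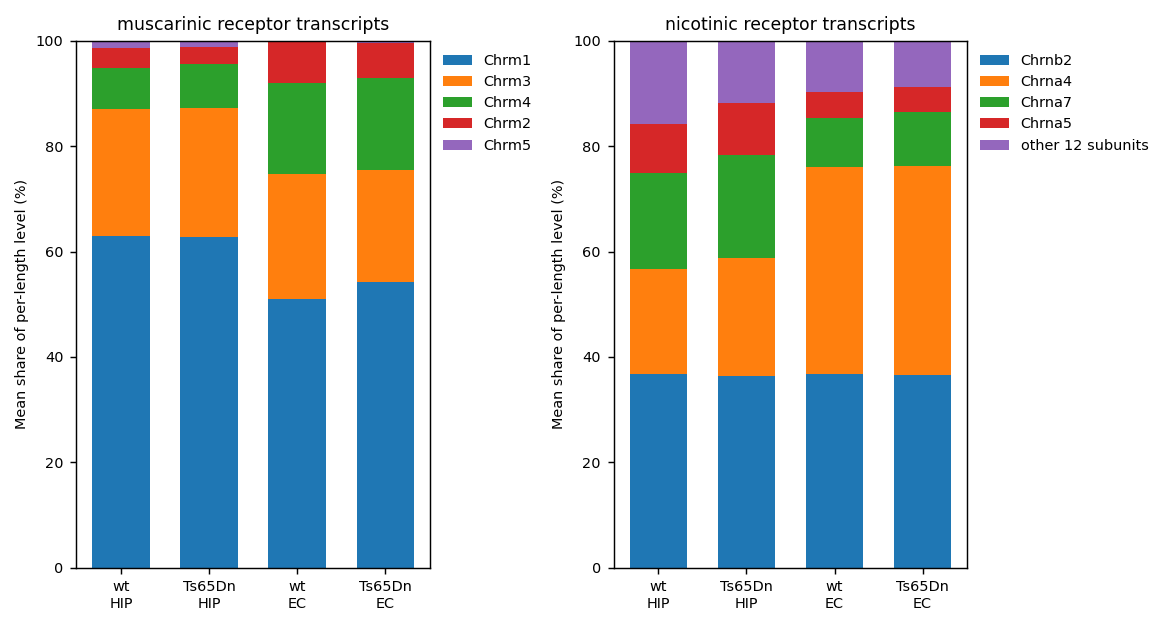
Stacked bars give the mean share (%) of each gene in the summed per-length level of the 5 muscarinic genes (left) and the 16 nicotinic subunit genes (right) in the 4 groups, 6 libraries each. The Chrm4 and Chrm2 blocks are larger in the EC, and the Chrna4 block grows where the Chrna7 and Chrna5 blocks shrink.

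Since 5 genes had a clear regional difference, their promoters are shown, as the 250 bases before and 50 bases from the transcription start in RefSeq (GRCm38.p6, 5′ to 3′ on the strand of the gene). Of the 9 genes, 8 had an entry. Capitals mark the GC box letters GGGCGG, searched on both strands with overlapping matches counted, which occur in 35.7% of 32851 RefSeq promoter windows of this length. The first set belongs to the genes that were higher in the EC: Chrm2 at chr6:36387834-36388133 (+), Chrm4 at chr2:91921939-91922238 (+) and Chrna4 at chr2:181039128-181039427 (-).
Chrm2: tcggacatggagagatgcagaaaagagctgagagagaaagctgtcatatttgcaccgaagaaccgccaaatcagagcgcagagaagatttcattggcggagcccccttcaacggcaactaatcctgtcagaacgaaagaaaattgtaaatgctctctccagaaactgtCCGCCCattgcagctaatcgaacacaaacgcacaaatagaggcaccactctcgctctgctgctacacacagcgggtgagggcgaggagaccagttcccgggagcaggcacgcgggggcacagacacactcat
Chrm4: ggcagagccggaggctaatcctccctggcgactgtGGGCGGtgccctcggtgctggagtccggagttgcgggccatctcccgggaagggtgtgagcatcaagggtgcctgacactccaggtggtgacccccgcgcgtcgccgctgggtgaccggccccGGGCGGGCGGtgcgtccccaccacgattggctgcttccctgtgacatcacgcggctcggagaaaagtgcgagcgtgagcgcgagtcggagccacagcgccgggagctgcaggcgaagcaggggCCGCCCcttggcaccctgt
Chrna4: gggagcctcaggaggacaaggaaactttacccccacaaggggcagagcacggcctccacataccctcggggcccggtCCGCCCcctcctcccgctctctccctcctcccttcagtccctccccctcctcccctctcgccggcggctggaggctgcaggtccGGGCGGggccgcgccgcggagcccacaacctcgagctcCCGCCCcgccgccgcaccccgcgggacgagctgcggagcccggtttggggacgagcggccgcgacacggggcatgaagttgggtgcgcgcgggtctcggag
The second set belongs to the genes that were higher in the HIP, with both RefSeq starts of Chrna5 at chr9:54980630-54980929 (+) and chr9:54981238-54981537 (+), and Chrna7 at chr7:63212477-63212776 (-).
Chrna5 first start: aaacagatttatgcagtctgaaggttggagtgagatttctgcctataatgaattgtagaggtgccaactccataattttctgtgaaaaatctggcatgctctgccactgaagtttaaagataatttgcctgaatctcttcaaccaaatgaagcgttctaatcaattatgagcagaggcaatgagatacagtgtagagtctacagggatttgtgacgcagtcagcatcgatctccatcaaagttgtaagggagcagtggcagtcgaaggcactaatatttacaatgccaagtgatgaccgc
Chrna5 second start: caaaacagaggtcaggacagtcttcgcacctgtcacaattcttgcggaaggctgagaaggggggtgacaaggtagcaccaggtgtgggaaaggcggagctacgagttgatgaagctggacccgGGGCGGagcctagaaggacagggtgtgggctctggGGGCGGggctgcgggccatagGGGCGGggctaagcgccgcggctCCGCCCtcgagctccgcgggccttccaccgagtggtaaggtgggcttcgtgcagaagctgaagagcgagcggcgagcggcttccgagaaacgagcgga
Chrna7: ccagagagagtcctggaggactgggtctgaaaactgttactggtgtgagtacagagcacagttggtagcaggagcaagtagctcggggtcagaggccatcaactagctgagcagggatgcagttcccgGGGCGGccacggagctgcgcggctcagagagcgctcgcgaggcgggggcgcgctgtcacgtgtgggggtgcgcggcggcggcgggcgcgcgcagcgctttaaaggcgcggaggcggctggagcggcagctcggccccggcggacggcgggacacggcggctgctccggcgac
GC boxes numbered 1 in Chrm2, 4 in Chrm4, 3 in Chrna4, 0 and 4 at the starts of Chrna5, and 1 in Chrna7, so both sets hold windows with few and with several. The G and C content was 52.7%, 70.7% and 74.3% in the EC set and 41.3%, 65% and 70.0% in the HIP set, where the median of all windows was 52.7%. Neither TATAAA, present in 13.6% of all windows, nor TGACGTCA, the cAMP response element, present in 1.79%, occurred in any of the member windows. The RefSeq start of Chrm4 lies upstream of its GENCODE vM21 model, which begins at position 91927249, and exons before that position are not part of the model.

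The comparison of Ts65Dn with wt asked whether the trisomy altered these genes. In the HIP 0 of 9 were called by edgeR's quasi-likelihood test, where 1.04% of all 17355 genes were, and 0 of 9 had an unadjusted p under 0.05 (14.8% of all genes). In the EC 0 of 9 were called, beside 2.5% of all 17049 genes, and 1 of 9 had an unadjusted p under 0.05 (19.0% of all genes). DESeq2 also called 0 of 9 in each region. No gene had groups without overlap in either region, where 1.67% of all genes did for the HIP and 2.46% for the EC. The 9 genes had a median log2 fold change of 0.09 (HIP) and 0.04 (EC), and over all genes tested it was 0.00 in both.

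Chrna7 had the smallest unadjusted p. It ranged from 8.69 to 10.7 CPM (median 9.89) in the wt EC and from 10.2 to 12.6 (median 11.5) in the Ts65Dn EC, and the groups overlapped only through Ts65Dn replicate 3, the lowest Ts65Dn library. The log2 fold change was 0.22 ± 0.0816 (95% interval 0.04 to 0.39), which did not pass the adjustment (edgeR's quasi-likelihood test, adjusted p = 0.168). Without Ts65Dn replicate 3 it was 0.25 ± 0.0809 and still not called (edgeR, adjusted p = 0.112). All 5 Ts65Dn libraries then lay above all 6 wt libraries, where 4.08% of all genes had groups without overlap in either direction. In the HIP the log2 fold change was 0.16 ± 0.111 (edgeR, adjusted p = 0.547), and 0.25 ± 0.0786 without that mouse (edgeR, adjusted p = 0.133), with overlapping groups. Without Ts65Dn replicate 4 the HIP value was 0.09. Over 18 alternative analyses in each region the adjusted p of Chrna7 was 0.133 to 0.761 for the HIP, and 0.0940 to 0.319 for the EC.

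The muscarinic receptors gave intervals that included 0 when all mice were used. For Chrm2 the log2 fold change was -0.22 in the HIP (95% interval -0.58 to 0.13), and the EC value was -0.23 (-0.56 to 0.11). Ts65Dn replicate 3 had the highest Chrm2 of the 12 HIP libraries (18.6 CPM), and without it the HIP value was -0.39 ± 0.124 (edgeR's quasi-likelihood test, adjusted p = 0.130), with 5 Ts65Dn libraries between 8.58 and 12.7 CPM and 6 wt libraries between 11.3 and 16.6 CPM. These ranges overlapped. Leaving out other single mice moved Chrm2 both ways, to -0.14 without Ts65Dn replicate 2 in the HIP, and to -0.12 without wt replicate 1 and -0.35 without Ts65Dn replicate 6 in the EC. For Chrm3 the EC log2 fold change was -0.19 (95% interval -0.39 to 0.01), from 90.7 to 118 CPM in wt and from 70.1 to 102 CPM in Ts65Dn, and 0.02 (-0.13 to 0.17) in the HIP. Chrm1 had the narrowest intervals of the muscarinic receptors in the EC, 0.04 (-0.05 to 0.14), and a value of 0.01 (-0.14 to 0.16) in the HIP. For Chrm4 the values were 0.09 (-0.31 to 0.50) for the HIP and -0.01 (-0.31 to 0.29) for the EC.

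The heteromeric nicotinic subunits and Ache lay slightly above wt without passing the test. For Chrnb2 the HIP log2 fold change was 0.04 (95% interval -0.06 to 0.14) and the EC value 0.08 (-0.05 to 0.20). Chrna4 followed with 0.26 (-0.15 to 0.67) and 0.09 (-0.09 to 0.27), and without Ts65Dn replicate 3, its highest HIP library, the HIP value was 0.14. It was 0.40 without wt replicate 6, 0.16 without wt replicate 4 and 0.04 without the 3 mice whose HIP libraries had habenular Pou4f1 above 1 CPM, and the EC value was 0.05 to 0.14 with 1 mouse left out. Chrna5 had 0.11 (-0.22 to 0.44) and 0.04 (-0.35 to 0.43), and 0.22 (-0.02 to 0.47) and 0.16 (-0.16 to 0.48) without that mouse. Ache had 0.10 (-0.11 to 0.31) and 0.15 (-0.06 to 0.35). The intervals of Chrm1 and Chrnb2 were the narrowest, and those of Chrna4 and Chrm4 in the HIP and Chrna5 in the EC the widest.

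**Figure D4:**
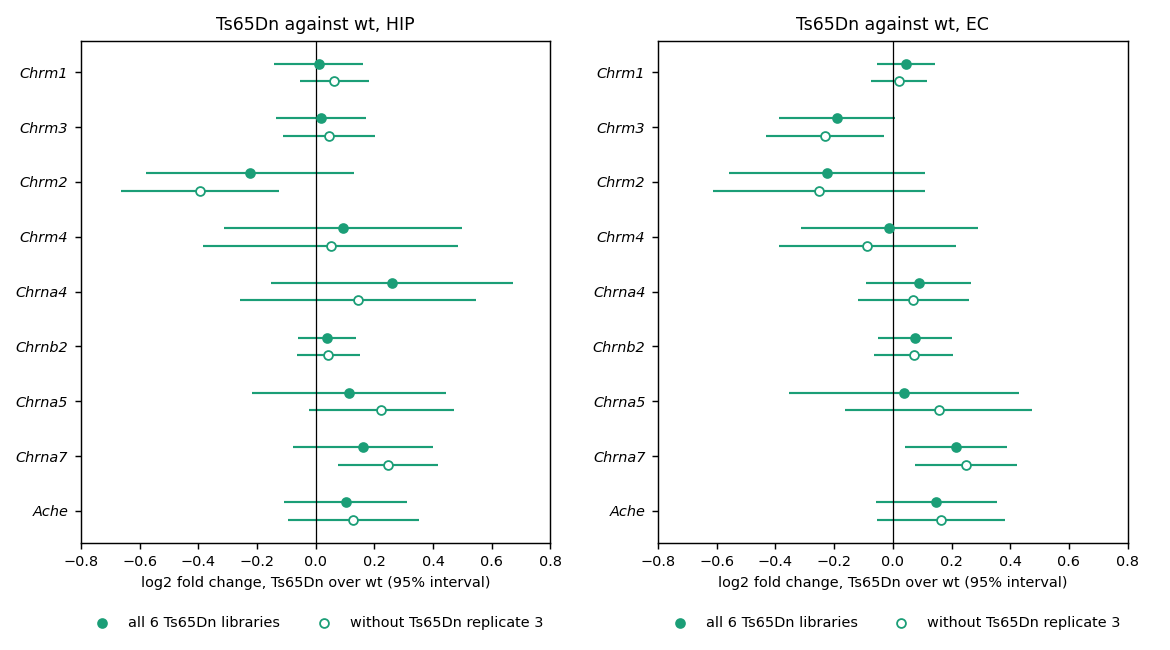
Log2 fold changes of Ts65Dn over wt from edgeR with 95% intervals in the HIP (left) and EC (right), with all 6 Ts65Dn libraries (filled) and without Ts65Dn replicate 3 (open). Without this mouse Chrm2 in the HIP, Chrm3 in the EC and Chrna7 in both regions have intervals that leave out 0, and none of the 9 genes was called.

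Without Ts65Dn replicate 3, edgeR called 0 of 9 genes in the HIP (1.82% of all genes) and 0 of 9 in the EC (2.79%), with 2 of 9 at an unadjusted p under 0.05 in each region, where 17.0% (HIP) and 19.0% (EC) of all genes were. The groups were then apart for 0 of 9 in the HIP, beside 3.54% of all genes. Whether the regional difference depended on genotype was tested as an interaction with a term for each mouse. It called 0 of 9 members and 0 of 18109 genes in edgeR (0.0%), with 742 genes at an unadjusted p under 0.05, and 0 genes in DESeq2. Without Ts65Dn replicate 3 it called 0 of 9 members and 0 of 18220 genes in edgeR, with 1176 genes at an unadjusted p under 0.05. The interaction estimates of the 9 genes lay between -0.07 for Chrna7 and 0.20 for Chrm3 on the log2 scale.

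Other genes of cholinergic transmission were counted from lists. Of 13 other muscarinic and nicotinic receptor genes, 8 passed the filter in the region comparison, of which 3 (Chrna6, Chrnb4 and Chrm5) passed through 1 region alone and were not counted. Of the other 5, the HIP was higher for 4 (30.3% of all genes) and the EC for 1 (28.3%) in wt, and 2 (29.5%) and 1 (27.0%) in Ts65Dn. Chrna6, the α6 subunit known from dopaminergic and visual pathways, had 0.116 ± 0.101 CPM in the wt HIP, on 1 to 9 counts per library, and 1.29 ± 0.321 CPM in the wt EC, on 21 to 52 counts. In Ts65Dn its counts were 0 to 4 (HIP) and 13 to 41 (EC), so no fold is given. Chrm5, the fifth muscarinic receptor, had 1.46 ± 0.409 CPM in the wt HIP and 0.249 ± 0.113 in the wt EC, on 31 to 73 and 2 to 11 counts per library. In Ts65Dn the counts were 13 to 95 and 4 to 21. In the genotype comparisons edgeR called 0 of 7 tested for the HIP (1.04% of all genes) and 0 of 6 for the EC (2.5%), with and without Ts65Dn replicate 3.

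For 3 of these subunits the HIP values depended on single libraries. Chrna3, Chrnb4 and Chrnb3 are expressed strongly in the medial habenula, a nucleus next to the HIP that is rich in cholinergic neurons. Chrna3 was 25.5 CPM in wt HIP replicate 4, 9.42 in Ts65Dn HIP replicate 3 and 4.96 in wt HIP replicate 2, and between 1.21 and 2.52 CPM in the other 9 HIP libraries. Chrnb4 was 14.2, 5.41 and 2.30 CPM in the same 3 libraries and at most 0.701 CPM in the others. The habenular transcription factor Pou4f1 had 14.3, 5.37 and 1.92 CPM in these libraries and at most 0.472 CPM elsewhere in the HIP, and Gpr151, a habenular receptor, 32.7, 12.9 and 5.91 CPM. The list of 6 habenular markers itself holds Chrna3 and Chrnb4. The 4 markers that are not receptor subunits, led by Nwd2, summed to 205, 104 and 65.3 CPM in these libraries and to between 44.7 and 57.1 CPM in the other 9. Nwd2 is not specific to the habenula in these data, with 74.6 to 158 CPM in the EC libraries, and the 3 markers without it (Pou4f1, Gpr151 and Tac2) summed to 67.9, 25.7 and 13.9 CPM, against 3.24 to 5.32 CPM in the other 9 HIP libraries and 7.32 to 11.0 CPM in the EC.

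Genes for choline uptake and acetylcholine synthesis moved with them. Slc5a7, the high-affinity choline transporter, had 19.5 CPM in wt replicate 4, 6.38 CPM in Ts65Dn replicate 3, 2.42 CPM in wt replicate 2 and at most 0.914 CPM in the other HIP libraries. Chat, which synthesises acetylcholine, had 3.93, 1.73 and 0.546 CPM in these libraries and at most 0.0893 CPM in the others. Without the 3 mice, Chrna3 in wt had a log2 fold change of 0.48 in place of 1.38 and Chrnb3 -2.72 in place of -1.52. Chrnb1, counted above among the receptor genes higher in the wt HIP, was then no longer called (0.64, edgeR, adjusted p = 0.0520). Slc5a7 in wt went from 0.15 (edgeR, adjusted p = 0.860) to -1.12 (edgeR, adjusted p = 0.000972), higher in the EC. Among the members, 7 of 9 were again called in wt without these mice, beside 49.5% of all genes, with Chrm2 at -1.12, Chrm4 at -1.20, Chrna4 at -1.06, Chrna5 at 0.79 and Chrna7 at 0.89.

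**Figure D5:**
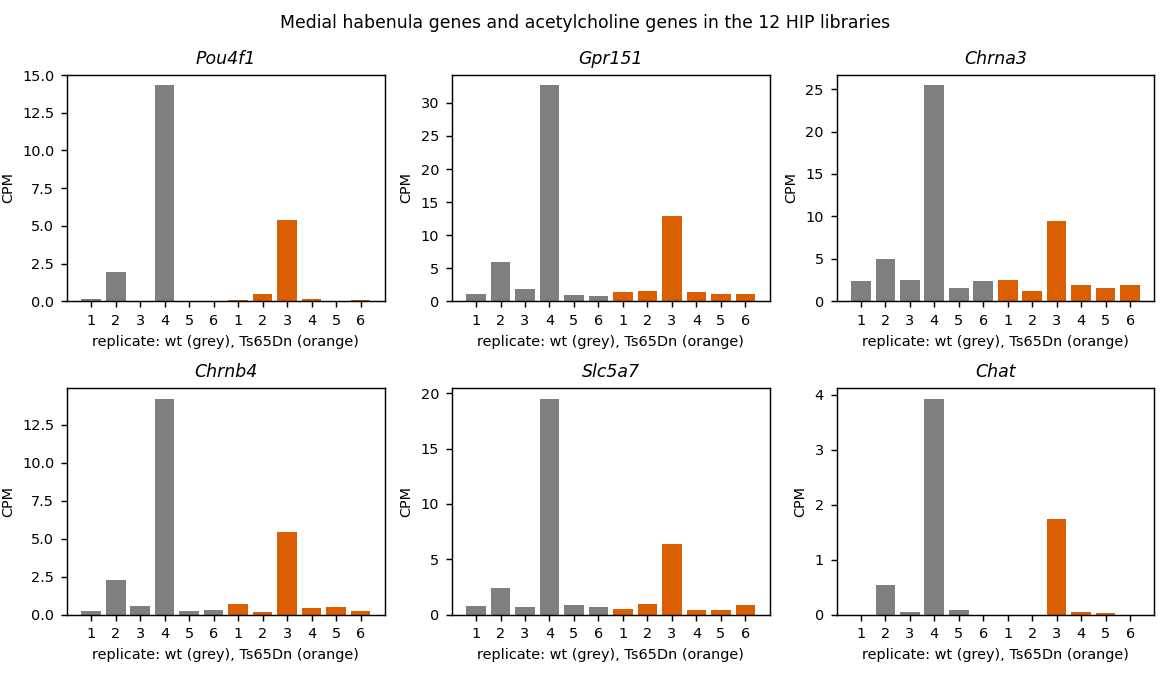
Bars give CPM in each of the 12 HIP libraries, wt replicates 1 to 6 in grey and Ts65Dn replicates 1 to 6 in orange, for 2 habenular markers (Pou4f1, Gpr151), 2 nicotinic subunits (Chrna3, Chrnb4) and 2 acetylcholine genes (Slc5a7, Chat). All 6 genes peak in wt replicate 4, followed by Ts65Dn replicate 3 and wt replicate 2.

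Of the 7 genes for synthesis, release and breakdown, 5 were tested between regions. In wt the HIP was higher for 3 (30.3% of all genes) and the EC for 0 (28.3%), and in Ts65Dn 3 (29.5%) and 1 (27.0%). Slc44a1, a choline transporter, had 144 ± 12.1 CPM in the wt HIP and 73.9 ± 7.60 in the wt EC (log2 fold change 0.97 ± 0.0758). Prima1, which anchors acetylcholinesterase in neuronal membranes, had 2.33 ± 0.473 and 0.623 ± 0.256 CPM (log2 fold change 1.93 ± 0.246), and butyrylcholinesterase (Bche) 12.8 ± 2.36 and 8.17 ± 2.23 CPM (0.66 ± 0.149). The oligodendrocyte markers were also higher in the HIP, with a sum of 8326 ± 899 CPM in wt against 2082 ± 560 CPM in the wt EC, and their part in these values was not tested. Genotype called 0 of 5 in each region (1.04% of all genes for the HIP, 2.5% for the EC), with and without Ts65Dn replicate 3.

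All 8 genes for nicotinic receptor assembly and modulation were tested. In wt 7 were higher in the EC (28.3% of all genes) and 1 in the HIP (30.3%), with a median log2 fold change of -0.56 against 0.01 for all genes, and in Ts65Dn 5 (27.0%) and 1 (29.5%), with -0.54 against 0.01. Lypd6b, a membrane-anchored modulator of nicotinic receptors, had 6.93 ± 1.19 CPM in the wt HIP and 16.5 ± 2.86 in the wt EC (log2 fold change -1.25 ± 0.0994 in wt and -1.63 ± 0.1004 in Ts65Dn). Lypd1 had -1.12 ± 0.115 and -1.37 ± 0.115. Tmem35a, the chaperone NACHO needed for assembly of α7 receptors, was higher in the EC (-0.61 ± 0.0788 in wt and -0.59 ± 0.0789 in Ts65Dn), opposite in direction to Chrna7. Lynx1, which dampens nicotinic currents, was the gene higher in the HIP (0.34 ± 0.107 and 0.56 ± 0.107). Genotype called 0 of 8 in each region (1.04% of all genes for the HIP, 2.5% for the EC). Without Ts65Dn replicate 3 it called 1 in the EC (2.79% of all genes), Ly6h, a membrane-anchored relative of Lynx1, with a log2 fold change of 0.40 ± 0.0911 (edgeR's quasi-likelihood test, adjusted p = 0.0335) in place of 0.36 ± 0.0923 (edgeR, adjusted p = 0.0536), and 0 in the HIP.

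Of 18 genes acting downstream of muscarinic receptors, 14 were called in wt, 6 higher in the HIP (30.3% of all genes) and 8 in the EC (28.3%), and in Ts65Dn 7 (29.5%) and 9 (27.0%). Rgs4, a GTPase activator for Gi and Gq, had 210 ± 42.5 CPM in the wt HIP and 723 ± 80.7 in the wt EC (log2 fold change -1.80 ± 0.113), and Plcb4, a phospholipase C, -1.05 ± 0.109. Prkca, protein kinase C alpha, was higher in the HIP, with 511 ± 43.2 and 254 ± 22.8 CPM (1.01 ± 0.0704). Between genotypes 0 of 18 were called in the HIP (1.04% of all genes) and 2 in the EC (2.5%). Kcnj6, a Gi-activated potassium channel that lies on the triplicated segment, rose from 29.4 ± 2.45 to 43.4 ± 7.46 CPM in the EC (0.55 ± 0.111, edgeR's quasi-likelihood test, adjusted p = 0.0221) and was called in 15 of 18 alternatives. Gnai1, a Gi α subunit, fell from 293 ± 19.4 to 248 ± 20.5 CPM (-0.25 ± 0.0621, edgeR, adjusted p = 0.0484), a call made in 5 of 18 alternatives. Without Ts65Dn replicate 3 edgeR called 1 of 18 for the HIP (1.82% of all genes) and 2 for the EC (2.79%). Kcnj6 was then called in both regions, with 0.65 ± 0.0911 in the HIP (edgeR, adjusted p = 0.00197) in place of 0.54 ± 0.142 (edgeR, adjusted p = 0.0953) and 0.65 ± 0.0636 in the EC (edgeR, adjusted p = 6.62e-05). Rgs4 was lower in the Ts65Dn EC (-0.38 ± 0.0813, edgeR, adjusted p = 0.0258), where with all mice it had -0.31 ± 0.0916 (edgeR, adjusted p = 0.0849), and Gnai1 was no longer called (-0.22 ± 0.0599, edgeR, adjusted p = 0.0671).

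In the comparison of regions within Ts65Dn, the same 7 members were called without replicate 3, beside 52.0% of all genes. Of the other lists, the 5 receptors that passed in both regions had 2 calls higher in the HIP against 1 for the EC, and assembly genes 1 against 5, whereas synthesis and breakdown genes had 2 against 1, with Bche no longer called, and signalling genes 7 against 7.

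For the 5 members with an absolute log2 fold change of at least 0.5 between regions in wt, the genes with the most similar pattern were taken as those with the smallest mean absolute difference in centred log2 CPM over the 24 libraries. They were Pou3f2 (0.17) and Pdp1 (0.17) for Chrm2, Mypn (0.13) and Golga7b (0.15) for Chrm4, Coro2a (0.13) and Elmo1 (0.13) for Chrna4, Hs3st4 (0.14) and Chrna7 (0.15) for Chrna5, and Garem1 (0.09) and Lrrn2 (0.09) for Chrna7. Chrna7 was thus among the genes nearest to Chrna5. The libraries share mice and regions, so this likeness is a description.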

How the data were processed

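The data were 24 RNA-Seq libraries, from the HIP and EC of 6 Ts65Dn and 6 wt mice. Groups and replicate numbers came from the sample labels. The authors aligned single-end reads to GRCm38 with Hisat2 and deposited raw HTSeq counts per gene, without normalization, for 55385 genes. No column was left out, and every row carried a gene identifier. The methods describe a stranded total RNA kit and polyA RNA, the labels a stranded mRNA kit. The deposited tables of the authors' own comparisons hold DESeq2 and FCROS fold changes and p-values and were not used. Gene symbols, positions and exon lengths came from GENCODE vM21 (GRCm38), which matched 99.6% of the genes.

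Counts were scaled by TMM and tested with edgeR 4.0.16 (quasi-likelihood test, filterByExpr, Benjamini-Hochberg adjusted p under 0.05, R 4.3.3). Genotypes were compared within a region on 6 against 6 libraries. Regions and the interaction used 24 libraries with a term for each mouse, since the titles give the HIP and EC library of a mouse the same number. The deviations of such pairs from their group means correlated with r between 0.171 and 0.472, over 0.1 in 12 of 12. Nothing in the labels names a batch. Alternatives were DESeq2 1.42.0, its size factors in edgeR, no filter, at least 10 counts in every library, a replicate block or its removal, the libraries of 1 genotype alone, leaving out each mouse and, chosen after seeing the data, leaving out the 3 mice with Pou4f1 above 1 CPM in the HIP and lengths of the longest transcript. Likeness used log2(CPM + 0.5). Scripts were tested on simulated data. Promoter sequences and starts are from RefSeq.

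The names in the text were limited to the 9 members, genes of the cholinergic lists that were called or reached 1 CPM (a choice of these, made with values known), marker genes, and for each member with a regional log2 fold change of at least 0.5 the 2 genes of most similar pattern. Kcnj6 and Gnai1 were counted over the alternatives after their calls were seen. The members and lists were chosen with earlier results of these data known. The marker lists held cholinergic neuron, striatal, medial habenula, choroid plexus, interneuron, deep cortical layer, cortical, hippocampal, oligodendrocyte, astrocyte, microglia and endothelial genes.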

Additional observations from a re-analysis of the deposited data

Results flagged for a closer look

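Highest and lowest libraries were compared with the rest of their group of 6 by Dixon's test at its 95% critical value (0.625), over the 9 members and the other receptor and acetylcholine genes with enough counts. Over the 88 groups tested, 11 values were set apart. Chance gives about 1 in 20 for a single group, but these groups share libraries and genes that vary together. The count was therefore not compared with that rate. None of the 9 members had a library set apart in this way.

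The libraries set apart were largely those with medial habenula genes. In the wt HIP, replicate 4 stood above the others for Chrna3 (25.5 CPM), Chrnb3 (10.9 CPM), Chrnb4 (14.2 CPM) and Slc5a7 (19.5 CPM). In the Ts65Dn HIP, replicate 3 did so for the same genes, with 9.42, 4.33, 5.41 and 6.38 CPM. Pou4f1 was highest in the same libraries, and the part of habenular tissue in these values was not tested.

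In Ts65Dn HIP replicate 3 the level of Chrna1, the muscle-type α1 subunit, was 1.21 CPM, below the other 5 libraries of its group. Chrna1 was also highest in wt EC replicate 4, at 0.909 CPM, and Chrnb4 in Ts65Dn EC replicate 1, at 0.191 CPM. All 3 values rest on few counts.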

How the results depend on the processing

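No member was called between genotypes under any alternative, and Chrm2, Chrm4, Chrna4, Chrna5 and Chrna7 were called between regions in both genotypes under every alternative run. With 1 mouse left out, 7 members were called in wt between regions (52.8% to 59.7% of all genes) and 5 to 7 in Ts65Dn (51.3% to 56.2%). The Ts65Dn set changed: Ache was called in 11 of 12 such fits, Chrm1 in 1, without Ts65Dn replicate 3, and Chrm3 in 1, without Ts65Dn replicate 1. The number of genes called was less stable. DESeq2 called 662 (HIP) and 1141 (EC), no filter gave 275 in the EC and 37 in the interaction, and leaving out the 3 mice with habenula genes gave 184 in the EC. With 1 mouse left out calls numbered 54 to 318 (HIP), lowest without Ts65Dn replicate 6, highest without Ts65Dn replicate 3, and 90 to 685 (EC), lowest without Ts65Dn replicate 1 and highest without Ts65Dn replicate 6. A replicate block between wt and Ts65Dn mice of the same number gave 29 calls in the HIP and 36 in the EC. Same-numbered mice had correlations of -0.256 to 0.208 (HIP) and -0.125 to 0.188 (EC), so the numbers do not pair the genotypes.

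Values that changed sign were small ones. In the HIP, Chrm1 was -0.036 to 0.064, Chrm3 -0.017 to 0.078 and Chrm4 -0.0056 to 0.242 with 1 mouse left out, and Chrm4 was -0.066 without the 3 mice. In the EC, Chrm4 was -0.113 to 0.055 and Chrna5 -0.052 to 0.156 with 1 mouse left out, and Chrna4 -0.019 without the 3 mice. In the interaction, Chrm1 was -0.085 to 0.036, Chrm2 -0.132 to 0.092 and Chrna5 -0.041 to 0.176 with 1 mouse left out, and without the 3 mice Chrm1 was 0.015, Chrna7 0.036 and Ache 0.0041. The cause was not tested.

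With the length of the longest transcript, 14 of 36 positions in the per-length orders changed. Chrna7 took rank 5 in the HIP and Chrna4 rank 6 in the EC. DESeq2 size factors moved no mean by more than its SD. Chrna5 and the subunits under 1 CPM rest on few counts, and the part of counting error in their spread was not tested.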

Other observations

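Markers of other cells that the dissections could hold were summed over their lists in each library. The 6 choroid plexus markers, led by Ttr, ranged from 57.4 to 5143 CPM over the 12 HIP libraries and from 10.4 to 50.9 CPM over the 12 EC libraries. They were lowest in Ts65Dn HIP replicate 4 and highest in Ts65Dn HIP replicate 1, and varied as widely in wt, from 93.8 to 4922 CPM. The 8 cholinergic neuron markers summed to 28.2 CPM in wt HIP replicate 4 and 11.3 CPM in Ts65Dn HIP replicate 3, the libraries with the most habenula genes, and had a median of 3.12 CPM in the wt EC.

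The 8 striatal neuron markers ranged from 217 to 242 CPM in the wt EC and from 216 to 341 CPM in the Ts65Dn EC. Striatal neurons express Chrm4, which ranged from 14.6 to 21.0 CPM in the wt EC and from 13.1 to 22.7 CPM in the Ts65Dn EC. The highest sums, 341 and 312 CPM, were in Ts65Dn EC replicates 6 and 2, which had the highest and the lowest Chrm4 of that group. Of the 8 markers edgeR's quasi-likelihood test called 1 between genotypes in the EC (2.5% of all genes), and 4 had an unadjusted p under 0.05 (19.0%). The median log2 fold change of the 8 markers was 0.50, against 0.0046 for all genes. The called gene was the dopamine receptor Drd2, which rose from 1.33 ± 0.548 to 3.93 ± 1.89 CPM. Its log2 fold change was 1.56 ± 0.328 (adjusted p = 0.0254 in the same edgeR test). Without Ts65Dn replicate 3 it was 1.70 ± 0.302 (adjusted p = 0.00940 in the same edgeR test). The part of striatal tissue in these values was not tested.

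The 10 interneuron markers averaged 954 ± 105 CPM (SD, n = 6) in the wt HIP and 1100.0 ± 44.8 CPM in the wt EC, and the 8 deep cortical layer markers 230.3 ± 21.2 and 250.4 ± 22.5 CPM. Of these 8, edgeR called 4 higher in the wt EC (28.3% of all genes) and 1, Etv1, higher in the wt HIP (30.3%). Their median log2 fold change was -0.87, against 0.01 for all genes. Of the 10 interneuron markers 1 was called higher in the wt HIP and 5 in the wt EC. The 5 astrocyte markers averaged 1749 ± 92.0 and 1506 ± 140 CPM in the wt HIP and EC, but they did not share a direction. Of these, 3 were called higher in the wt HIP (30.3% of all genes) and 2 in the wt EC (28.3%). Slc1a3, the most abundant, had 762 to 839 CPM in the wt HIP and 806 to 1078 CPM in the wt EC. The 5 microglia markers averaged 331 ± 14.9 and 404 ± 50.4 CPM, and the 5 endothelial markers 174 ± 10.8 and 235 ± 18.4 CPM. The microglial receptor P2ry12 was lower in Ts65Dn in both regions, by log2 values of -0.27 ± 0.0573 (HIP) and -0.45 ± 0.0910 (EC, edgeR's quasi-likelihood test, adjusted p = 0.0422 and 0.0226, and 0.0483 and 0.0309 without Ts65Dn replicate 3). With all mice, Drd2 and P2ry12 were the marker genes called between genotypes over the 12 lists, and without Ts65Dn replicate 3 the cortical marker Rorb was also called lower in the EC.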
